A study of Mus musculus with 18 samples.

Results

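Transcripts of 10 genes that restrain the RAS-ERK pathway were followed through RNA-seq of mouse embryonic fibroblasts (MEFs). The members were chosen by name as 4 phosphatases that remove phosphate from ERK (Dusp4, Dusp5, Dusp6 and Dusp7), 3 Sprouty genes (Spry1, Spry2 and Spry4) and 3 Spred genes (Spred1, Spred2 and Spred3). They are 10 of the 55401 gene identifiers in the deposited count table. Each of the 10 was matched to 1 identifier, and all 10 passed the filter on low counts in both series. The choice was made by name, with earlier results of these data known.

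RAS is a membrane switch that, when bound to GTP, drives a cascade of kinases that ends in ERK, and ERK then phosphorylates proteins in the cytoplasm and nucleus. The pathway restrains itself through genes that ERK output induces. Dusp4 and Dusp5 encode nuclear phosphatases, Dusp6 and Dusp7 encode cytoplasmic ERK phosphatases, Sprouty proteins act on signalling from receptor tyrosine kinases towards RAS, and Spred proteins bring the RAS-inactivating protein neurofibromin to the membrane. In primary fibroblasts, oncogenic RAS leads to senescence, a lasting arrest of proliferation.

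The study compared 6 groups of 3 libraries in a pair of genetic series, to ask how the ribosomal S6 kinases S6K1 and S6K2 shape the transcriptome of senescent cells. The S6K1 series held S6K1 WT cells with an empty vector (WT EV), S6K1 WT cells with an oncogenic HRAS vector (WT RAS) and S6K1 KO cells with the same RAS vector (KO RAS). In the S6K1/S6K2 series, DKO cells lacking both kinases carried RAS (DKO RAS), beside WT EV and WT RAS cells of their own. All 18 cultures came from embryos at one stage of gestation, minced without head and viscera, infected with retrovirus and selected with puromycin. WT and KO embryos of the S6K1 series were littermates, per the methods of the study. The DKO embryos came from parents that lacked S6K2, and their WT controls came from other, WT mothers, so the effect of genotype and of litter cannot be told apart there. No KO or DKO culture with EV was analysed here, so the effect of kinase loss was measured in the presence of RAS. RAS was expressed from a retroviral vector in whole cultures, not from the endogenous gene.

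Library totals were between 8319445 and 14402442 counts, and the 10 members had between 46 and 3289 counts in any library. The targeted genes were lower where deleted. Rps6kb1, the gene of S6K1, was at 23.5 to 36.9 CPM (counts relative to the library total) in KO RAS against 61.5 to 74.5 in WT RAS. It was at 34.4 to 39.7 CPM in DKO RAS against 75.4 to 83.6 in the WT RAS libraries of that series. Rps6kb2, the gene of S6K2, was at 2.67 to 3.04 CPM in DKO RAS against 24.0 to 28.9 in WT RAS. Hras was higher in WT RAS than in WT EV in both series, by 0.93 ± 0.14 and 0.75 ± 0.15 (log2 fold change ± SE). Whether reads of the vector were counted as Hras was not tested. All 10 fibroblast markers were above the floor of 3 counts in every library. The macrophage marker sum differed between libraries of 1 group and is given below. In whole cultures, fewer cells of a type and less RNA per cell cannot be told apart.

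The start regions of the ERK phosphatase genes are shown because Dusp5 and Dusp6 rose with RAS in both series and Dusp7 passed the test in neither. Of the 10 members, 8 had an entry in the RefSeq promoter table (assembly GRCm38.p6), and the 250 bases upstream of the start were searched on both strands for 4 motifs. These were TGANTCA (AP-1), TGACGTCA (CRE), CGGAAGT (ETS) and the CArG box bound by serum response factor. They were found in 6.749%, 1.546%, 4.919% and 1.467% of the 32851 windows of the table. Among the 8 members, the Dusp5 window held matches, and these were adjacent CArG boxes at bases -82 to -73 and -72 to -63 from the start, which read as a CArG box on either strand. They are in capitals below, and the windows of Dusp6 and Dusp7 hold no match and are all in lower case. Windows are on the plus strand at chr19:53528895-53529144 (Dusp5), chr10:99262981-99263230 (Dusp6) and chr9:106368382-106368631 (Dusp7, for which the table uses a start inside the annotated gene span).
Dusp5: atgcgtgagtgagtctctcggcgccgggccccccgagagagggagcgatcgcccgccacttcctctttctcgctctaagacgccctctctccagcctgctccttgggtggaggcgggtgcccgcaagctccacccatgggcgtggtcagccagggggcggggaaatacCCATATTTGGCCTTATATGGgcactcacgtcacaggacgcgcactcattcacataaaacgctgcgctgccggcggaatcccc
Dusp6: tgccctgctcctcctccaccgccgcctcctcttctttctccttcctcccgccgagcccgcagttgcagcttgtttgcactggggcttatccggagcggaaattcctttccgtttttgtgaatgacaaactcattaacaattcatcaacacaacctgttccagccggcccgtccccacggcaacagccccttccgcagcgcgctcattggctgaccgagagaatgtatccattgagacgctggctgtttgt
Dusp7: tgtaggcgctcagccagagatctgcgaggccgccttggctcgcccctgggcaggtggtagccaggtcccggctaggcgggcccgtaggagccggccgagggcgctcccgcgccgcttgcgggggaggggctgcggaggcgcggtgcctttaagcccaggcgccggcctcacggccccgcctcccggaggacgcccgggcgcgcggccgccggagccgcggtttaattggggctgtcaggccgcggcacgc
The bases G and C made up 64.0% of the Dusp5 window, 56.4% of the Dusp6 window and 77.2% of the Dusp7 window, against a median of 52.4% over the table. A match is a description of the letters, and its absence says only that these letters are not in this window.

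With RAS, most of the family rose in both WT series. In the S6K1 series, 7 of the 10 members passed the test (edgeR's quasi-likelihood test, Benjamini-Hochberg adjusted p under 0.05), and all 7 were higher in WT RAS. Of the 14036 genes tested, 13.2% passed, 7.15% in the higher and 6.09% in the lower direction. The S6K1/S6K2 series had 7 of 10 pass, again all higher, against 26.3% of 13881 genes, 13.5% in the higher and 12.7% in the lower direction. The replicate block called 9 members (36.2% of genes) and 7 members (28.7%), and DESeq2 called 9 (17.6%) and 7 (29.8%). The 6 members called in both series were Dusp5, Dusp6, Spry4, Spred1, Spred2 and Spred3. The median log2 fold change of the 10 members was 1.08 in the S6K1 series and 1.49 in the S6K1/S6K2 series, and over all genes tested it was 0.0018 and -0.024. WT RAS libraries lay wholly above WT EV for 8 members in the S6K1 series (15.9% of all genes) and for 7 in the S6K1/S6K2 series (20.9%), where 0 members lay wholly below (21.7%). Levels are CPM, scaled by TMM, which corrects for differences in library composition, within each series.

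**Figure D1:**
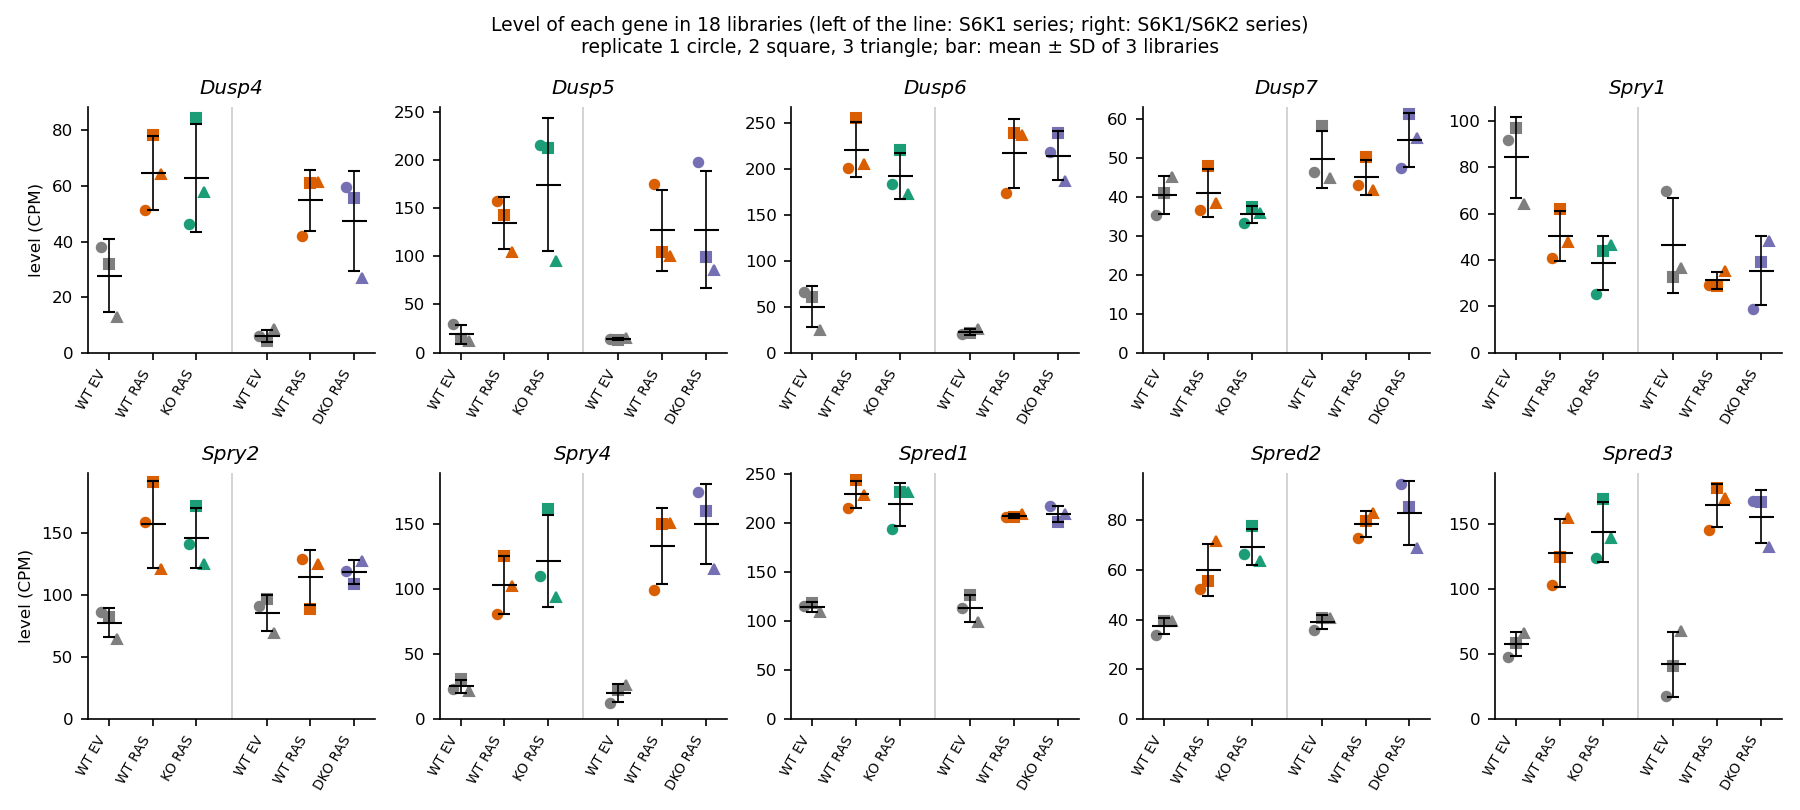
Level of each of the 10 genes in CPM (vertical axes, starting at 0) in every library of the 6 groups, with the S6K1 series to the left of the grey line and the S6K1/S6K2 series to its right. Circles, squares and triangles are replicates 1, 2 and 3, and bars are the mean ± SD of 3 libraries. Dusp5, Dusp6 and Spry4 sit far above WT EV in all 12 RAS libraries, and Dusp7 libraries of all groups lie between 33.2 and 61.2 CPM.

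Dusp5 (chr19:53529145-53541809, plus strand, GRCm38.p6), which encodes a nuclear phosphatase specific for ERK, had 30.2, 14.4 and 12.2 CPM in the WT EV libraries of the S6K1 series and 157, 142 and 104 CPM with RAS. EV libraries of the S6K1/S6K2 series had 14.1, 12.9 and 14.8 CPM, and RAS libraries 175, 105 and 101 CPM. Every RAS library was above every EV library by a wide margin. The change was 7.07-fold (95% interval 3.69 to 13.5, adjusted p = 0.0025) in the S6K1 series and 9.11-fold (5.35 to 15.5, adjusted p = 0.000365) in the S6K1/S6K2 series.

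Dusp6 (chr10:99263231-99267489, plus strand), which encodes the cytoplasmic phosphatase most often used as a readout of ERK activity, had 66.2, 60.1 and 24.5 CPM with EV in the S6K1 series against 202, 256 and 206 CPM with RAS. The values of the S6K1/S6K2 series were 19.9, 21.2 and 26.1 CPM with EV and 174, 240 and 237 CPM with RAS. The WT RAS levels, scaled within each series, overlapped between the series, and EV replicates 1 and 2 of the S6K1 series were the high EV libraries. The rise was 4.39-fold (2.67 to 7.23, adjusted p = 0.00266) in the S6K1 series and 9.69-fold (7.3 to 12.9, adjusted p = 3.25e-05) in the other.

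Dusp4 (chr8:34807610-34819894), which encodes a nuclear phosphatase for ERK and other MAP kinases, had 38.2, 31.8 and 13.0 CPM with EV and 51.5, 78.2 and 64.3 CPM with RAS in the S6K1 series. For the S6K1/S6K2 series these were 5.84, 4.06 and 8.38 CPM with EV and 42.1, 61.0 and 61.5 CPM with RAS. EV and RAS libraries did not overlap in either series, but the EV libraries of the S6K1 series lay above those of the other series. These levels were scaled within each series, not across them. The change was 2.33-fold (1.31 to 4.15) in the S6K1 series with an adjusted p of 0.0609 in edgeR. It passed with the replicate number as a block (adjusted p = 0.00841) and in DESeq2 (adjusted p = 0.0101). The rise was 8.99-fold in the S6K1/S6K2 series (5.2 to 15.5, adjusted p = 0.000409).

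Dusp7 (chr9:106368560-106375724, plus strand), which encodes the other cytoplasmic ERK phosphatase of the list, stood apart from these. Its level was 35.3, 40.9 and 45.0 CPM with EV and 36.5, 47.9 and 38.4 CPM with RAS in the S6K1 series. It was 46.2, 58.0 and 44.7 CPM with EV and 43.0, 50.0 and 41.8 CPM with RAS in the S6K1/S6K2 series. EV and RAS libraries were interleaved in both series. The fold change was 1.01 (0.811 to 1.27, adjusted p = 0.949) and 0.906 (0.721 to 1.14, adjusted p = 0.499). The intervals thus leave room for a change up to 1.27-fold or down to 0.721-fold.

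Spry4 (chr18:38586247-38601347), an inhibitor of receptor tyrosine kinase signalling, rose most of the Sprouty genes. S6K1 series libraries had 23.2, 30.7 and 21.0 CPM with EV and 80.6, 125 and 102 CPM with RAS. S6K1/S6K2 series libraries had 12.4, 21.8 and 25.6 CPM with EV and 99.0, 149 and 151 CPM with RAS. The RAS libraries were far above the EV libraries in each series. The fold change was 4.11 (2.78 to 6.07, adjusted p = 0.00109) and 6.67 (4.28 to 10.4, adjusted p = 0.000314).

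Spry2 (chr14:105891947-105896819, minus strand), which is known to limit signalling from growth factor receptors, had 86.3, 81.9 and 64.3 CPM with EV and 159, 191 and 121 CPM with RAS in the S6K1 series. The change there was 2.03-fold (1.49 to 2.75, adjusted p = 0.00894). Libraries of the S6K1/S6K2 series had 91.0, 96.8 and 69.3 CPM with EV and 129, 88.9 and 125 CPM with RAS. RAS replicate 2 fell among the EV libraries, and the change of 1.34-fold (1.02 to 1.75) had an adjusted p of 0.104. Without that library the log2 fold change was 0.57 (adjusted p = 0.044).

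Spry1 (chr3:37639947-37644599, plus strand), the remaining Sprouty gene, had the opposite sign. Its S6K1 series levels were 91.8, 97.0 and 64.3 CPM with EV and 40.8, 62.2 and 48.0 CPM with RAS. The lowest EV library was just above the highest RAS library, and Spry1 was the 1 member with wholly lower RAS libraries (15% of all genes). The log2 fold change of -0.75 ± 0.26 (SE) had an adjusted p of 0.0934, and it passed with the replicate block (-0.77, adjusted p = 0.0126) and in DESeq2 (-0.74, adjusted p = 0.0454). Its S6K1/S6K2 series levels were 69.7, 32.8 and 36.4 CPM with EV and 29.3, 29.0 and 35.4 CPM with RAS. There EV replicate 1 alone was high, the groups overlapped and the log2 fold change was -0.57 ± 0.35 (adjusted p = 0.257). That EV library also had the high macrophage marker sum of its group, at 1044 CPM against 121 and 152 CPM. With the WT EV, WT RAS and DKO RAS libraries numbered 1 all left out of the fit, the log2 fold change was -0.096.

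The 3 Spred genes, whose proteins hold neurofibromin at the membrane, passed the test in both series. Spred1 (chr2:117121071-117182279, plus strand) was at 109 to 118 CPM with EV and 215 to 243 CPM with RAS in the S6K1 series, and at 98.6 to 126 and 205 to 209 CPM in the S6K1/S6K2 series. Its fold change was 2.01 (1.69 to 2.39, adjusted p = 0.000638) and 1.84 (1.53 to 2.2, adjusted p = 0.00105). Spred2 (chr11:19924442-20024026, plus strand) was at 33.8 to 39.5 CPM with EV and 52.3 to 71.8 with RAS in the first, and at 35.9 to 40.8 and 72.9 to 83.0 CPM in the second. Its change was 1.6-fold (1.26 to 2.01, adjusted p = 0.0171) and 2.01-fold (1.63 to 2.48, adjusted p = 0.00107). The call for Spred2 in the S6K1 series was lost without EV replicate 1 (0.59 on the log2 scale, adjusted p = 0.059).

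Spred3 (chr7:29157783-29170070, minus strand) had 47.9, 58.6 and 66.1 CPM with EV and 103, 125 and 155 CPM with RAS in the S6K1 series. Its EV libraries of the S6K1/S6K2 series spread widely, at 17.6, 40.7 and 67.8 CPM, while RAS libraries had 146, 178 and 170 CPM. All RAS libraries were above all EV libraries in both series. The change was 2.22-fold (1.65 to 2.98, adjusted p = 0.00433) and 3.91-fold (2.19 to 7, adjusted p = 0.00524). Within the lines of the S6K1/S6K2 series, the RAS minus EV difference in log2(CPM + 1) was 2.98, 2.10 and 1.32 for replicates 1, 2 and 3.

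**Figure D2:**
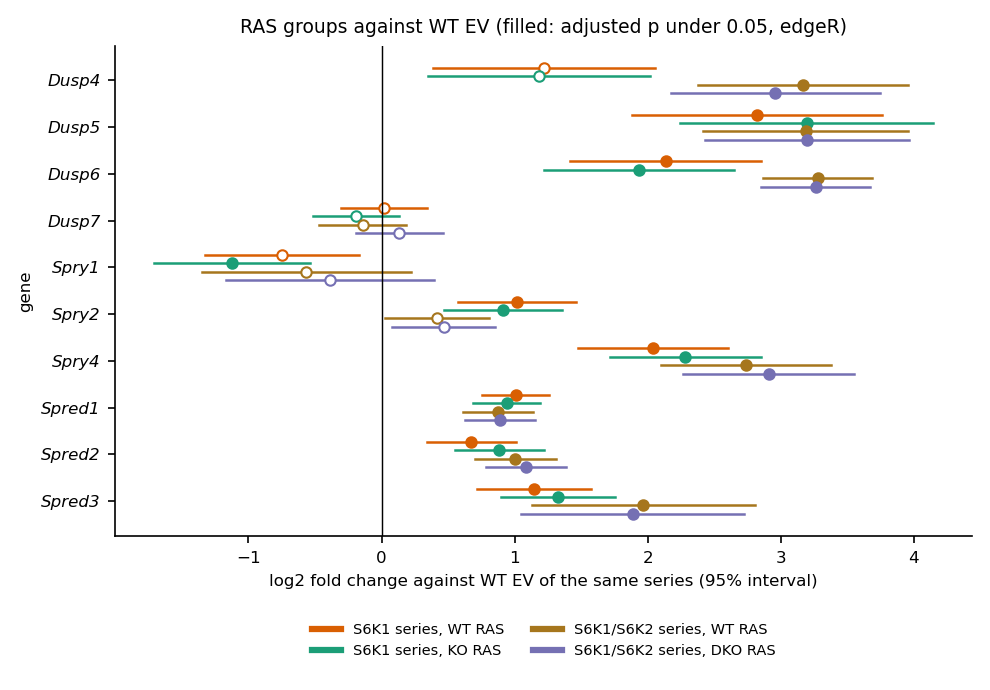
Log2 fold change of each gene against WT EV of the same series (horizontal axis) with its 95% interval, for WT RAS and for KO or DKO RAS in both series. Filled points passed an adjusted p of 0.05 in edgeR. The 3 Spred genes, Dusp5, Dusp6 and Spry4 are filled and above 0 in all 4 comparisons, and Dusp7 is open and near 0 in all 4.

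The size of the RAS effect was compared between the series in 1 fit of all 18 libraries, with the effect of the S6K1 series subtracted from that of the S6K1/S6K2 series. None of the 10 members passed, and 0 of 14483 genes did (12.6% of genes and 3 members had an unadjusted p under 0.05 in edgeR, and DESeq2 and the replicate block called 0.987% and 0.4% of genes). The members with the lowest p were Dusp4, with a difference of 1.94 ± 0.55 (log2 ± SE, unadjusted p = 0.00274, adjusted p = 0.225), and Dusp6, with 1.13 ± 0.38 (adjusted p = 0.288). Spry2 went the other way at -0.62 ± 0.28 (adjusted p = 0.384). DESeq2 called Dusp4 (1.95, adjusted p = 0.0456). Without EV replicate 3 of the S6K1 series, the library with low Dusp4 and Dusp6 in its group, the Dusp6 difference was 1.47 (adjusted p = 0.026). Each series was an experiment of its own, and a batch cannot be told apart from it.

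In WT EV of the S6K1 series, the library with the lowest macrophage marker sum was also the lowest for most members. The sum was 2281, 1773 and 468 CPM in EV replicates 1, 2 and 3 and 2625, 2497 and 564 CPM in WT RAS. Replicate 3 was the lowest EV library for Dusp4, Dusp5, Dusp6, Spry1, Spry2, Spry4 and Spred1 (64.3 CPM against 91.8 and 97.0 for Spry1). It was the highest for Dusp7, Spred2 and Spred3. All 10 macrophage markers were above the floor in these 6 WT EV and WT RAS libraries. Adgre1 and Csf1r, which mark macrophages, and Ptprc, which marks leukocytes in general, were at 106, 160 and 53.0 CPM in EV replicate 1. In WT EV of the other series the sum was 1044, 121 and 152 CPM. Dusp6 was at 19.9, 21.2 and 26.1 CPM there, and Dusp4 at 5.84, 4.06 and 8.38 CPM. Of the 10 members, the library with the high sum was the highest for Spry1 alone (69.7 CPM against 32.8 and 36.4). It was the lowest for Dusp6, Spry4, Spred2 and Spred3 (17.6 CPM against 40.7 and 67.8 for Spred3) and in between for the others. With all 3 libraries of replicate 3 left out of the S6K1 series, chosen after seeing the data, 6 of 10 members were called for RAS, and 1551 genes in all against 1859 with all libraries. Dusp6 was then at 1.86 (log2, adjusted p = 0.00236), Dusp4 at 0.89 (adjusted p = 0.162), and Spred2 lost its call (0.56, adjusted p = 0.0807). With the 3 libraries numbered 1 left out of the S6K1/S6K2 series, 7 of 10 members were called, and 3814 genes in all against 3646. The fibroblast marker sum was 31180 to 35014 CPM in WT EV and 15618 to 16035 CPM in WT RAS of the S6K1 series, and 31634 to 49144 and 13891 to 18684 CPM in the S6K1/S6K2 series. The part of either marker list in the RAS effects was not otherwise tested.

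Levels per kb of exon were used to set the genes of a family side by side. The length was that of all annotated exons of a gene (assembly NCBIM37). Which exons these cells use was not tested, and the order of the genes depends on that length. The summed level of the 4 phosphatases was 47.8 ± 14.5 CPM per kb (SD, n = 3) in WT EV and 169 ± 20.9 in WT RAS of the S6K1 series, and 30.6 ± 1.68 and 162 ± 2.56 in the S6K1/S6K2 series. The make-up of that sum changed as well as its size. Dusp7 held 27.8% ± 12.8 of it in WT EV and 7.2% ± 0.551 in WT RAS of the S6K1 series, and 48.3% ± 6.37 and 8.25% ± 0.68 in the S6K1/S6K2 series. Dusp6 was the largest part in WT RAS, at 46.7% ± 2.74 and 47.8% ± 7.98. The order in WT RAS was Dusp6, Dusp5, Dusp4 and Dusp7 in the means of both series, with Dusp6 at 79.1 ± 10.8 and Dusp5 at 54.4 ± 11.0 CPM per kb in the S6K1 series. In the other series Dusp6 was at 77.6 ± 13.3 and Dusp5 at 51.3 ± 16.9 CPM per kb, and their libraries overlapped there, while in the S6K1 series every Dusp6 value was above every Dusp5 value.

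Of the Sprouty genes, Spry2 was the largest part in every group mean. The sum of the 3 went from 71.6 ± 12.2 CPM per kb in WT EV to 115 ± 22.6 in WT RAS of the S6K1 series, and from 61.4 ± 9.54 to 94.6 ± 9.99 in the S6K1/S6K2 series. Spry4 went from 7.63% ± 1.01 to 19.6% ± 3.32 of the sum and from 7.43% ± 3.51 to 30.8% ± 7.58. Spry1 went from 40.3% ± 1.83 to 15.1% ± 2.01 and from 25.5% ± 8.08 to 11.4% ± 0.505. The Spred sum went from 34.5 ± 2.0 to 68.0 ± 7.39 CPM per kb and from 32.0 ± 4.06 to 74.9 ± 3.91. These shares follow from the levels given above and were not tested apart.

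**Figure D3:**
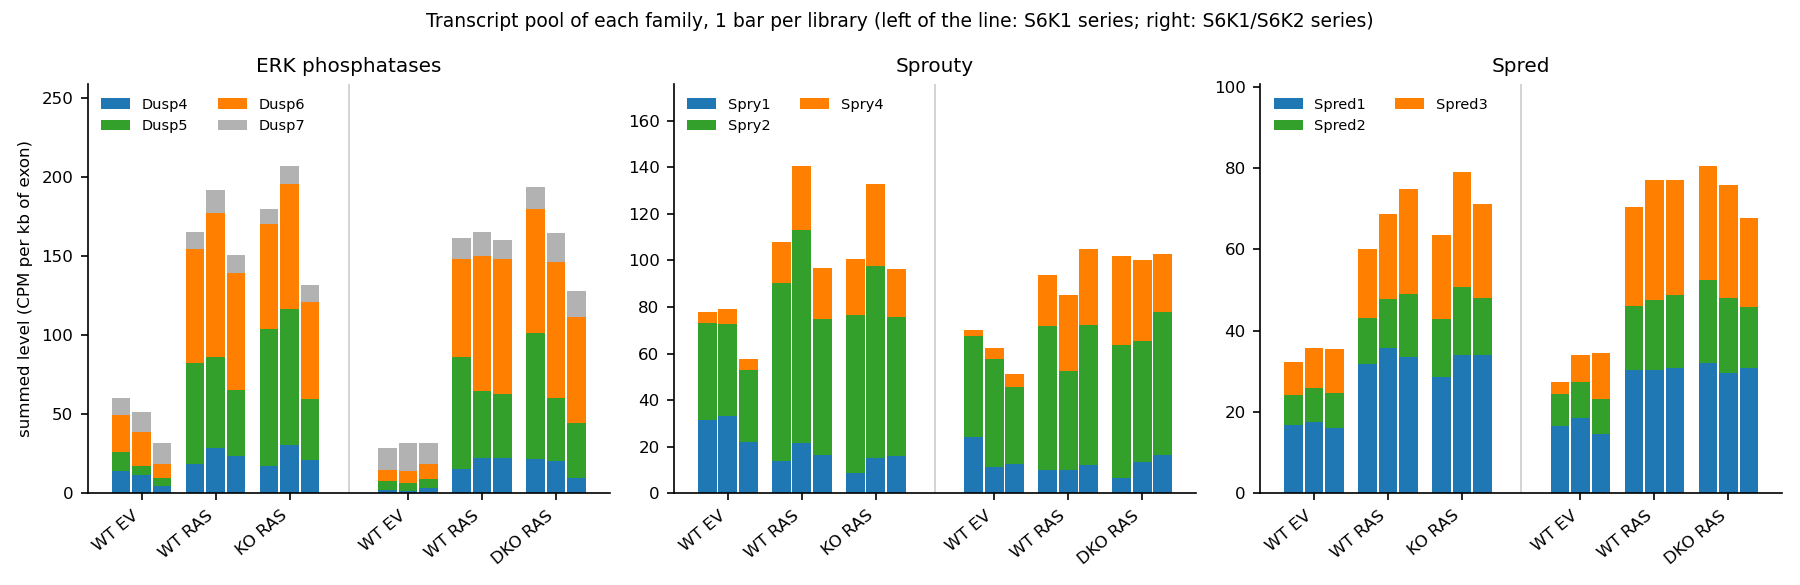
Summed level of each family in CPM per kb of exon (vertical axis, starting at 0), with 1 stacked bar per library and 1 colour per gene. Dusp7 is the top segment of the phosphatase bars and keeps about its size, while the Dusp5 and Dusp6 segments are larger in all RAS libraries, including KO and DKO.

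Among RAS cells, none of the 10 genes passed the test for loss of S6K1 or of both kinases. In KO RAS against WT RAS, 0 of the 10 members passed in edgeR, against 0.00712% of 14036 genes. None had an unadjusted p under 0.05 (6.86% of genes did), and DESeq2 and the replicate block called 0 members and 0.449% and 4.15% of genes. In DKO RAS against WT RAS, 0 of 10 passed against 0.0216% of 13881 genes, with 0 at an unadjusted p under 0.05 (1.29% of genes), and DESeq2 and the block called 0 members and 0.072% and 0.0576% of genes. All 10 members overlapped between the groups in both comparisons. Groups did not overlap, in either direction, for 3.85% and 4.17% of genes in the first and 3.03% and 3.05% in the second.

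The intervals, which are from the fit without the replicate block, bound what could have been missed. In the S6K1 series the log2 fold changes of the members were between -0.38 and 0.37, and the 95% interval lay within 2-fold for 9 of 10. The exception was Dusp5, at 216, 212 and 94.7 CPM in KO RAS against 157, 142 and 104 in WT RAS. KO replicates 1 and 2 were above the WT libraries and replicate 3 below them, and the change was 1.29-fold (0.71 to 2.36). With both kinases lost, the log2 fold changes were between -0.21 and 0.28, and 10 of 10 intervals lay within 2-fold. The narrowest intervals were those of Spred1, at 0.956-fold (0.805 to 1.13) and 1.01-fold (0.845 to 1.21).

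Dusp6 was at 184, 221 and 173 CPM in KO RAS and 218, 239 and 187 CPM in DKO RAS. These libraries lay among or just below the WT RAS values of 202 to 256 and 174 to 240 CPM. The change was 0.872-fold (0.542 to 1.4, adjusted p = 0.997) and 0.989-fold (0.766 to 1.28, adjusted p = 1.00). Spry4 was at 110, 161 and 93.3 CPM in KO RAS and 174, 160 and 115 CPM in DKO RAS, with changes of 1.18-fold (0.816 to 1.72) and 1.13-fold (0.747 to 1.7). Dusp4 was at 46.5, 84.4 and 58.0 CPM in KO RAS and 59.8, 55.8 and 26.8 CPM in DKO RAS. DKO replicate 3 was the lowest of the RAS libraries of its series for Dusp4, and the change was 0.864-fold (0.533 to 1.4). The macrophage marker sum was 199 to 653 CPM in KO RAS against 564 to 2625 CPM in the WT RAS libraries, and 66.3 to 186 CPM in DKO RAS against 158 to 770. All 10 markers had a lower mean in KO RAS at an unadjusted p under 0.05, and 0 passed in edgeR. With the replicate block 9 of them passed, all lower (4.15% of genes passed), and DESeq2 called 1 (0.449% of genes). The median log2 fold change of the 10 markers was -2.16, and that of the 9 markers tested in the DKO comparison was -1.95. Of those 9, edgeR and DESeq2 called 0, and the block called 1, which was lower. The part of the markers in these comparisons was not tested.

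Dusp7 was the member with the lowest p in the DKO comparison. It was at 33.2, 37.3 and 35.8 CPM in KO RAS and 47.2, 61.2 and 55.0 CPM in DKO RAS, against 36.5, 47.9 and 38.4 and 43.0, 50.0 and 41.8 CPM in the WT RAS libraries. KO libraries were all below the WT mean and DKO libraries above it. The changes were 0.865-fold (0.692 to 1.08, unadjusted p = 0.178) and 1.21-fold (0.965 to 1.52, unadjusted p = 0.0893). The difference of these effects was 0.52 ± 0.20 on the log2 scale (unadjusted p = 0.0225, adjusted p = 1.00), and 0 of 10 members passed that test, against 0.0069% of 14483 genes (1 member and 1.23% of genes at an unadjusted p under 0.05, and 0 members in DESeq2 and with the block).

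**Figure D4:**
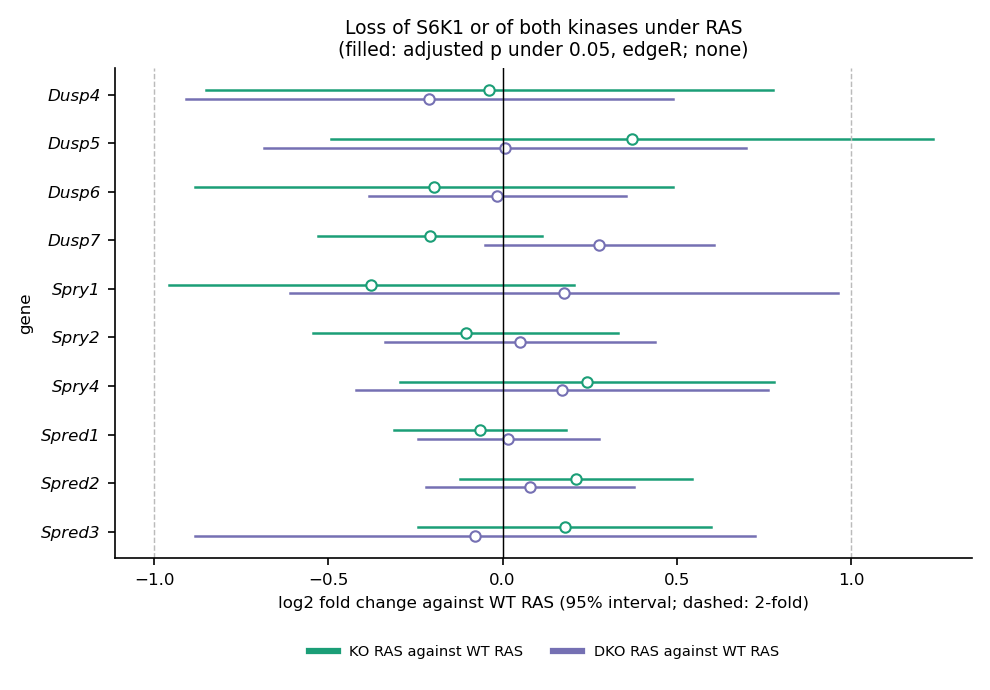
Log2 fold change of each gene in KO RAS and DKO RAS against WT RAS of the same series (horizontal axis) with its 95% interval. Dashed lines mark 2-fold in either direction. No gene passed an adjusted p of 0.05, and the Dusp5 interval of the S6K1 series is the one that crosses a dashed line.

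Cells without the kinases were also set against WT EV, which the WT RAS comparisons share as control, so these are given as values side by side. In KO RAS 8 of 10 members passed, 7 higher and 1 lower, against 18.1% of genes (9.55% higher and 8.56% lower). The 7 higher were Dusp5 (3.19), Dusp6 (1.94), Spry2 (0.91), Spry4 (2.28), Spred1 (0.94), Spred2 (0.89) and Spred3 (1.33), as log2 fold changes, and Spry1 was the lower one at -1.12 ± 0.26 (adjusted p = 0.0174). Spry1 was at 25.5, 44.0 and 46.7 CPM in KO RAS, below all 3 EV libraries. Its call was lost without EV replicate 2 (-1.02, adjusted p = 0.064), and that of Spry2 without KO replicate 2 (0.78, adjusted p = 0.0538). Dusp4, at 1.18 ± 0.37, had an adjusted p of 0.0547 and passed with the replicate block (adjusted p = 0.00896).

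In DKO RAS 7 of 10 members passed, all higher, against 25.7% of genes (13.1% higher). The log2 fold changes were 2.96 for Dusp4, 3.19 for Dusp5, 3.26 for Dusp6, 2.91 for Spry4, 0.89 for Spred1, 1.09 for Spred2 and 1.89 for Spred3. Spry2 was at 119, 109 and 128 CPM, wholly above EV, with 0.47 ± 0.17 (adjusted p = 0.0752, and 0.042 in DESeq2). Spry1 was at 19.0, 39.0 and 48.1 CPM and overlapped EV, with -0.39 ± 0.35 (adjusted p = 0.434). With the 3 libraries numbered 1 left out it was 0.33 (adjusted p = 0.168). DKO libraries were wholly above EV for 8 members and wholly below for 0, against 21.5% and 22% of genes, and KO libraries for 8 and 1, against 17.8% and 17%. DESeq2 called 9 members in KO RAS (22.6% of genes) and 8 in DKO RAS (29.8%), and the replicate block 9 (41.1%) and 7 (28.3%).

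Other genes of the pathway were described from a pair of lists. One held regulators of the RAS-ERK route that are no members (41 with an identifier, 40 tested), and the other held genes known to respond to ERK (20 tested). Of the 40 regulators, 10 passed with RAS in the S6K1 series, 8 higher and 2 lower, against 13.2% of all genes. With the replicate block 20 passed, 12 higher and 8 lower, against 36.2% of all genes. The S6K1/S6K2 series had 20 called, 17 higher and 3 lower, against 26.3% of all genes, and 13 without WT RAS replicate 3. Their median log2 fold change was 0.080 and 0.41. The 8 that rose in both series were Cblb, Dusp9, Dusp10, Errfi1, Lrig1, Rasa1, Rasa2 and Rps6ka2, and Mras was among those that fell in both. Rasa1 and Rasa2 encode RAS GTPase-activating proteins.

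Among the called regulators with a mean of at least 20 counts, Errfi1, Dusp9 and Rps6ka2 changed most in both series. Errfi1, which encodes an inhibitor of the EGF receptor, rose by 3.13 ± 0.32 on the log2 scale (adjusted p = 0.000408) and 3.13 ± 0.27 (adjusted p = 0.000127). Dusp9, the third cytoplasmic ERK phosphatase gene, rose by 2.91 ± 0.36 (adjusted p = 0.00112) and 2.88 ± 0.44 (adjusted p = 0.00184). It stayed low, at a mean of 32.7 and 17.8 CPM in WT RAS. Rps6ka2, which encodes an ERK-activated kinase, rose by 1.81 ± 0.25 (adjusted p = 0.00196) and 2.31 ± 0.34 (adjusted p = 0.0016).

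Of the 20 ERK-responsive genes, 12 passed in the S6K1 series (11 higher, 1 lower) and 14 in the S6K1/S6K2 series (13 higher, 1 lower), and 12 passed in both, against 13.2% and 26.3% of all genes in the single series. Egr1, Egr2, Egr3, Fos, Ier2 and Junb passed in neither series in edgeR. By sign alone, 16 of the 20 were higher and 4 lower in the S6K1 series. In the S6K1/S6K2 series 14 were higher and 6 lower. The largest changes in the S6K1 series were those of Hbegf, an EGF receptor ligand, at 2.06 ± 0.43 (adjusted p = 0.0124), Phlda1 at 1.99 ± 0.30 (adjusted p = 0.0029) and Etv4, an ETS transcription factor, at 1.96 ± 0.22 (adjusted p = 0.000666). Those in the S6K1/S6K2 series were Epha4, an ephrin receptor, at -2.87 ± 0.17 (adjusted p = 3.26e-05), Fosl1, an AP-1 subunit, at 2.48 ± 0.23 (adjusted p = 0.00018) and Etv4 at 2.31 ± 0.27 (adjusted p = 0.000498). Epha4 was the gene of this list that fell in both series. With kinase loss, 0 of the 40 regulators and 0 of the 20 responsive genes passed in either series in edgeR or DESeq2. The shares of all genes were as low, at 0.00712% and 0.0216% in edgeR and 0.449% and 0.072% in DESeq2. At an unadjusted p under 0.05 in edgeR there was 1 responsive gene in the S6K1 series and 0 elsewhere, against 6.86% and 1.29% of all genes. With replicate 3 left out of the S6K1 series, 1 responsive gene passed, and 381 genes in all.

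**Figure D5:**
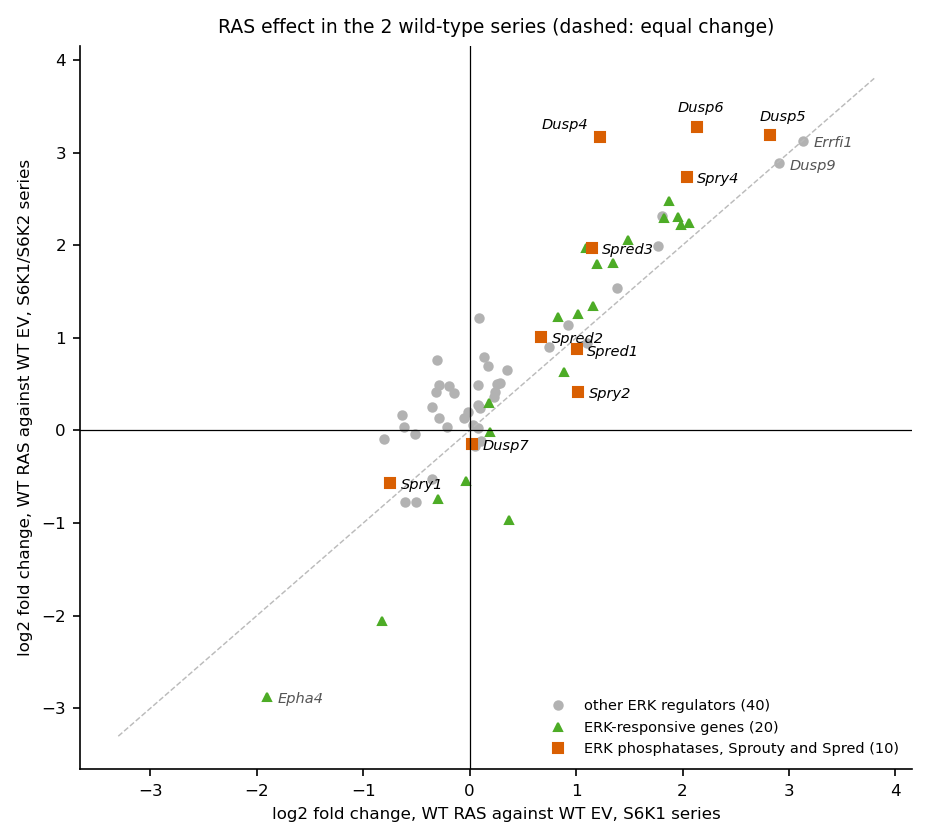
Log2 fold change of WT RAS against WT EV in the S6K1 series (horizontal axis) and in the S6K1/S6K2 series (vertical axis) for the 10 members (squares), the 40 other regulators (circles) and the 20 ERK-responsive genes (triangles), with equal change on the dashed line. Dusp4 and Dusp6 lie farthest above that line among the members, and Errfi1, Dusp9 and Dusp5 are at the upper right.

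Members were also compared by their pattern over the 18 libraries, as Pearson correlations of log2 CPM centred within each series. These libraries share RAS as the main source of spread, so the values are a description. Dusp6 and Spry4 had r = 0.97 and Dusp4 and Dusp6 r = 0.96. Dusp7 had r between -0.24 and 0.30 with the other 9 members, and Spry1 between -0.69 and -0.42 with the 8 members other than Dusp7. Among 10906 genes with a mean of at least 5 CPM, the genes most like Dusp6 were Chd7, Sh3bgrl2 and Pcgf5 (r = 0.98 each), and Pcgf5 and Chd7 were also the closest to Dusp4 (0.98 each), followed by Ptk2b (0.97). Those most like Dusp5 were Ercc1 (0.99), Plau and Hmga1 (0.98 each). Those most like Spry4 were Tmem47 and Sema6d (0.99 each) and Cflar (0.98). Spred1 was closest to Nmt2, Kif2a and Rbpj (0.98 each), Spred2 to Mgat5 (0.99), Cgnl1 and Klhl2 (0.98 each), and Spred3 to Mdm2, Arap2 (0.99 each) and Inf2 (0.98). Spry2 was closest to Csnk1g3, Suclg2 (0.93 each) and Stc1 (0.92), and Spry1 to Ppp1r3d (0.92), Fnbp1 and Map3k1 (0.88 each). Dusp7 had no gene above r = 0.74 (Hsf2), followed by Med26 (0.73) and Tmem194 (0.72).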

How the data were processed

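RNA-seq of 18 MEF libraries was analysed from the raw counts per gene that the authors deposited in 1 table, with 1 column per library. The methods of the study describe TopHat alignment of single-end reads to mm9 and HTSeq counting. The submitters' processing notes name STAR 2.7.1a, mm10 and DESeq2 1.28.1 instead, so which aligner and build made the counts is open, and the annotation release is not given in the sources used here. Of the identifiers, 22812 are absent from the NCBIM37 annotation (the assembly of mm9), so positions and promoter windows were taken from RefSeq tables of GRCm38.p6, matching mm10. They describe the genes, not the read counting. Exon lengths for levels per kb were those of the NCBIM37 annotation. Symbols were found for 32589 identifiers (99.1% of counts), Hras and the macrophage marker Adgre1 through RefSeq synonyms. Spry3 was not matched and has no value.

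Counts were fitted in R 4.3.3 with edgeR 4.0.16 (limma 3.58.1), each series alone with its 9 libraries and group as the only term, filterByExpr at a minimum count of 10 and TMM scaling. The differences of effects were fitted over all 18 libraries. Quasi-likelihood tests were two-sided, and p-values were adjusted by Benjamini-Hochberg over all genes tested, with a threshold of 0.05. Replicates were cultures of separate embryos, per the study. Replicate libraries were compared pair by pair with a chi-square test of their counts. All 18 pairs differed beyond sampling noise, the closest with a chi-square of 7.98 per degree of freedom. A floor of 3 counts was used and, like the intervals, covers counting or replicate error alone. Libraries of the same number were tested for pairing by correlating deviations from group means. The values were 0.75, 0.479 and 0.682 for RAS and 0.747, 0.436 and 0.638 for KO loss in the S6K1 series, and 0.371, 0.284 and 0.329 for RAS in the S6K1/S6K2 series, where EV and RAS libraries of a number are taken as 1 WT line. DKO and WT libraries gave 0.26, 0.487 and -0.049 and share a number alone.

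Alternatives were DESeq2 1.42.0, scaling by its size factors or by upper quartiles, dropping the filter or asking for at least 10 counts in each library, fitting only the 6 libraries compared or all 18, the replicate block, leaving out each library, and, added after seeing the data, leaving out, in each series, all 3 libraries of the replicate number that stands apart by macrophage markers (3 in the S6K1 and 1 in the S6K1/S6K2 series, where the DKO library is no line of its WT namesakes). The fit was also run on simulated counts without paired lines, with planted changes larger than any member's loss effect. That run does not bear on smaller changes. Named genes were the members, the targeted genes, Hras, per RAS comparison up to 3 genes of each pathway list with the largest called change and a mean of at least 20 counts, any list gene called with kinase loss, and per member the 3 genes with the most similar pattern. Genes of the lists called in both series are named besides, chosen after their values were seen, except for a gene that is not reported here. Members and lists were chosen with earlier results of these data known.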

Additional observations from a re-analysis of the deposited data

Results flagged for a closer look

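Dusp7 lay on opposite sides of the WT RAS mean in every library of the kinase-deficient groups. The KO RAS libraries were -0.30 to -0.13 from the WT RAS mean on the log2 scale and the DKO RAS libraries 0.070 to 0.45 from theirs. The difference of the loss effects was 0.52 ± 0.20 (log2 ± SE, unadjusted p = 0.0225, adjusted p = 1.00 in edgeR), so it did not pass over all genes.

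Rps6kb2 differed between the series in its response to genotype, by -3.11 ± 0.20 on the log2 scale (adjusted p = 9.1e-07 in edgeR). It is the gene deleted in the DKO and not in the KO cells.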

How the results depend on the processing

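Apart from fits that leave out 1 library, 635 of 660 member fold changes and 133 of 138 counts kept their direction and side of the threshold (counts, within 1.5 times). The number of members called for the difference of RAS effects went from 0 to 1 in DESeq2 and to 1 with no filter, and was 0 to 1 when 1 library was left out. Of the other ERK regulators, 10 were called for RAS in the S6K1 series, 20 with the replicate block and 6 with the replicate number that stands apart by macrophage markers left out. In the S6K1/S6K2 series 20 were called, and 13 to 21 when 1 library was left out. With that number left out, 1 ERK-responsive gene was called for S6K1 loss in place of 0, and 381 genes in all in place of 1, none of them a member. With the replicate block, Dusp4 and Spry1 gained a call for RAS and Dusp4 for KO RAS against EV in the S6K1 series, and no other member's call changed.

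Sign changes outside leave-one-out fits were in fold changes that had not passed (log2 values). For DKO loss, Dusp5 became -0.0035 with upper-quartile scaling, -0.029 with the replicate block and -0.16 with the number left out, and Dusp6 became 0.00012 with no filter. With the number left out, Dusp4 became 0.017 for S6K1 loss, Spry4 -0.13, Spred1 -0.023 and Spred2 -0.083 for DKO loss, and Spry1 0.33 for DKO RAS against EV. Spry4 became 0.019 for the difference of loss effects with the replicate block. The cause of these changes was not tested.

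Leaving out 1 library changed the sign of 20 results, each with these lowest and highest log2 values. For S6K1 loss, Dusp4 was at -0.31 to 0.13, Spry2 at -0.26 to 0.048, Spry4 at -0.013 to 0.40 and Spred1 at -0.11 to 0.0058. For DKO loss, Dusp4 was at -0.41 to 0.074, Dusp5 at -0.45 to 0.31, Dusp6 at -0.15 to 0.075, Spry1 at -0.11 to 0.48, Spry2 at -0.10 to 0.15, Spry4 at -0.0023 to 0.33, Spred1 at -0.012 to 0.040, Spred2 at -0.026 to 0.20 and Spred3 at -0.16 to 0.025. For the difference of loss effects, Dusp4 was at -0.36 to 0.14, Spry4 at -0.22 to 0.21 and Spred2 at -0.24 to 0.015. For RAS in the S6K1 series Dusp7 was at -0.098 to 0.10, for the difference of RAS effects Dusp5 was at -0.17 to 0.59 and Spry1 at -0.032 to 0.58, and for DKO RAS against EV Spry1 was at -0.67 to 0.030. With 3 libraries a group, the intervals in the report bound the loss comparisons, and each member had at least 46 counts in every library.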
